A study of Mus musculus with 18 samples.

Results

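Ier2, Ier3, Ier5, Btg1, Btg2, Gadd45a, Gadd45b and Gadd45g are 8 stress-response genes of 3 families, IER, BTG and GADD45. They were chosen by name, as the rows of the gene count table whose Ensembl identifier carries one of these symbols, and the rule uses no measured value, although the set was picked with earlier results of these data known. The table holds 50600 genes, and 15663 of them had enough reads to be tested. All 8 genes were among the tested ones.

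IER genes are immediate early response genes, which are transcribed soon after a stimulus by factors already present in the cell. BTG proteins are antiproliferative adaptors that bind the CCR4-NOT deadenylase, the complex that shortens mRNA tails. GADD45 proteins are small stress sensors that bind PCNA and CDK1 and switch on the kinase MEKK4, encoded by Map3k4, upstream of p38 and JNK. In macrophages several of these genes are known to respond to inflammatory signals such as NF-kB activation.

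Messenger RNA was sequenced from mouse bone marrow derived macrophages (BMDMs) grown in GM-CSF for 8 days, to ask how defactinib acts on the response to lipopolysaccharide (LPS) in cells with and without the transcription factor IRF5. LPS is the bacterial cell wall component that engages TLR4, and defactinib inhibits the kinases FAK and PYK2. WT and IRF5 KO cells were each left unstimulated, given LPS after the vehicle (the LPS DMSO groups) or given LPS after the drug (the LPS defactinib groups), which makes 6 groups of 3 libraries that the submitters describe as biological replicates. In the LPS groups, cells received the vehicle DMSO or 3.5 µM defactinib for 1 h and then 100 ng/ml LPS for 2 h. The unstimulated groups are labelled as DMSO-treated, whereas the column names of the table call them UT. All groups share the GM-CSF culture, and no group received defactinib without LPS. Wild-type mice are described in the study's methods as male C57BL/6J animals. The IRF5 KO line, its deleted exons and the age and sex of its mice are not given in the sources used here.

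In the mm10 genome, Ier2 (ENSMUSG00000053560) lies at chr8:84661331-84662852 and Ier5 (ENSMUSG00000056708) at chr1:155096361-155099636, both on the minus strand and each as 1 exonic block. Ier3 (ENSMUSG00000003541) lies at chr17:35821684-35822923 on the plus strand, in 2 exonic blocks. Btg1 (ENSMUSG00000036478) occupies chr10:96617006-96622809 on the plus strand, and Btg2 (ENSMUSG00000020423) chr1:134075170-134079120 on the minus strand. Gadd45a (ENSMUSG00000036390) lies at chr6:67035096-67037457 on the minus strand, where it overlaps the antisense gene E230016M11Rik, and the reads were counted by strand. Gadd45b (ENSMUSG00000015312) lies at chr10:80930073-80932204 and Gadd45g (ENSMUSG00000021453) at chr13:51846678-51848468, both on the plus strand. Counted exons sum to between 1131 bases for Ier3 and 5276 bases for Btg1, so levels are compared between genes only per kilobase (kb) of exon.

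RefSeq (GRCm38.p6) gave the 250 bases before the annotated start for 7 of the 8 genes, all but Ier2. Both strands were searched for the letters of AP-1 (TGANTCA), CRE (TGACGTCA), ISRE (GAAANNGAAA) and TATA box (TATAAA) motifs, and for the NF-kB site and CArG box by name. An NF-kB match was found in Ier3 alone, 92 to 83 bases before the start, and 7.25% of all 32851 promoters hold one. A CRE match was found in Btg2 alone, 166 to 159 bases before the start, and 1.55% of promoters hold one. TATA letters were found in Btg1, Gadd45b and Gadd45g, against 12.4% of promoters. AP-1, CArG and ISRE letters, which 6.75%, 1.47% and 2.98% of promoters hold, were in none of the 7 windows. A match describes letters and was not tested as a binding site. The windows of Ier3, Btg2 and Gadd45b are printed 5′ to 3′ on the strand of the gene because they hold the 3 kinds of match. Capitals mark the NF-kB match in Ier3 (chr17:35821463-35821712, plus strand), the CRE match in Btg2 (chr1:134079156-134079405, minus strand) and the TATA letters in Gadd45b (chr10:80929841-80930090, plus strand).
Ier3: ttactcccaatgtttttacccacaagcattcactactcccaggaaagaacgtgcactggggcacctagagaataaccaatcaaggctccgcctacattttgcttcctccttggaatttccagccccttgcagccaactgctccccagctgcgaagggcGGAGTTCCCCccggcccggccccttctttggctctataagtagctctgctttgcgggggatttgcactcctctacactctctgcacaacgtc
Btg2: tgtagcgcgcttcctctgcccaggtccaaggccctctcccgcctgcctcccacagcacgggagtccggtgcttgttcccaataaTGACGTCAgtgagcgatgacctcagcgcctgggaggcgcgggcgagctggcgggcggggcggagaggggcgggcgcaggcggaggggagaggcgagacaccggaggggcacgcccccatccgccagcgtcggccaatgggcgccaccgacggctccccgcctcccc
Gadd45b: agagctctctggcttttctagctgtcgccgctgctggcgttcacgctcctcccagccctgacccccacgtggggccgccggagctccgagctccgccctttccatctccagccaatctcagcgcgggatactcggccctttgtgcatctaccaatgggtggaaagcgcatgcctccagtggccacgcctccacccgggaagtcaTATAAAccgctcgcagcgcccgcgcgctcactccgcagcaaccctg

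Between 39282181 and 61949143 read pairs per library fell in genes. Of the 3 IRF5 KO LPS DMSO libraries, replicate 3 stood apart from the other 2: across genes, replicates 1 and 2 correlated most with the IRF5 KO LPS defactinib group (r = 0.989) and replicate 3 with the IRF5 KO unstimulated group (r = 0.981). The chi-square per gene, which is 1 for counting noise alone, was 2.33 between replicates 1 and 2 and 441 and 425 between replicate 3 and each of them, whereas pairs within the other groups ran from 3.82 to 183. Replicates 1 and 2 were kept as 2 samples. LPS-response genes were above the unstimulated IRF5 KO libraries in all 3, as the label says: Ptgs2 was at 411, 422 and 498 CPM against at most 1.20 CPM, Tnf at 2491, 2495 and 1141 CPM against at most 59.4 CPM, Il6 at 28.3, 27.9 and 382 CPM against at most 0.712 CPM and Ifit1 at 11.1, 10.8 and 574 CPM against at most 5.92 CPM. Whether each received the vehicle or the drug before LPS was not tested, and every value given for LPS with DMSO in IRF5 KO is that of libraries labelled so. The main results that use this group are given with all libraries, without replicate 3 and with replicate 3 alone, where the lone library is assumed to vary like the other groups. Irf5, the targeted gene, was at 587, 606 and 650 CPM (read count scaled to library size) in unstimulated WT libraries, 434, 475 and 443 CPM after LPS with DMSO and 213, 234 and 379 CPM after LPS with defactinib. In IRF5 KO libraries it was at 335, 397 and 364 CPM unstimulated, 435, 431 and 345 CPM after LPS with DMSO and 364, 392 and 353 CPM after LPS with defactinib. These reads cover the whole gene and do not check the genotype where the deleted exon is unknown. All 7 macrophage markers were detected, and the T, B and NK cell markers were each below 1 CPM in every library. Macrophage markers summed to 9752 to 10088 CPM in unstimulated WT and 9368 to 9870 CPM in WT LPS DMSO libraries. They reached 10667 to 15062 CPM in WT LPS defactinib and 10241 to 14587 CPM in unstimulated IRF5 KO libraries. The IRF5 KO LPS DMSO libraries were at 9568 to 12195 CPM. The IRF5 KO LPS defactinib libraries were at 17817 to 18772 CPM, above all others. Mast cell and basophil markers summed to 7.89 to 15.5 CPM in WT and 42.7 to 72.4 CPM in IRF5 KO libraries, with 3 of the 6 (Mcpt8, Ms4a2 and Tpsb2) below 1 CPM throughout. Dendritic cell markers (Flt3, Zbtb46, Itgax, Ccr7 and Cd209a, of which macrophages also express Itgax) summed to 2364 to 2536 CPM in unstimulated WT, 2817 to 2936 CPM in WT LPS DMSO, 2305 to 2922 CPM in WT LPS defactinib, 1930 to 2034 CPM in unstimulated IRF5 KO, 2066 to 2675 CPM in IRF5 KO LPS DMSO and 2619 to 2702 CPM in IRF5 KO LPS defactinib libraries. They were thus higher without overlap after LPS with DMSO in both genotypes, and in unstimulated WT than in unstimulated IRF5 KO. Neutrophil markers summed to 51.9 to 74.3 CPM in unstimulated and 110 to 214 CPM in LPS-treated libraries, with 2 of the 7 (Elane and Mpo) below 1 CPM throughout. The part of these cells in the results was not tested.

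**Figure D1:**
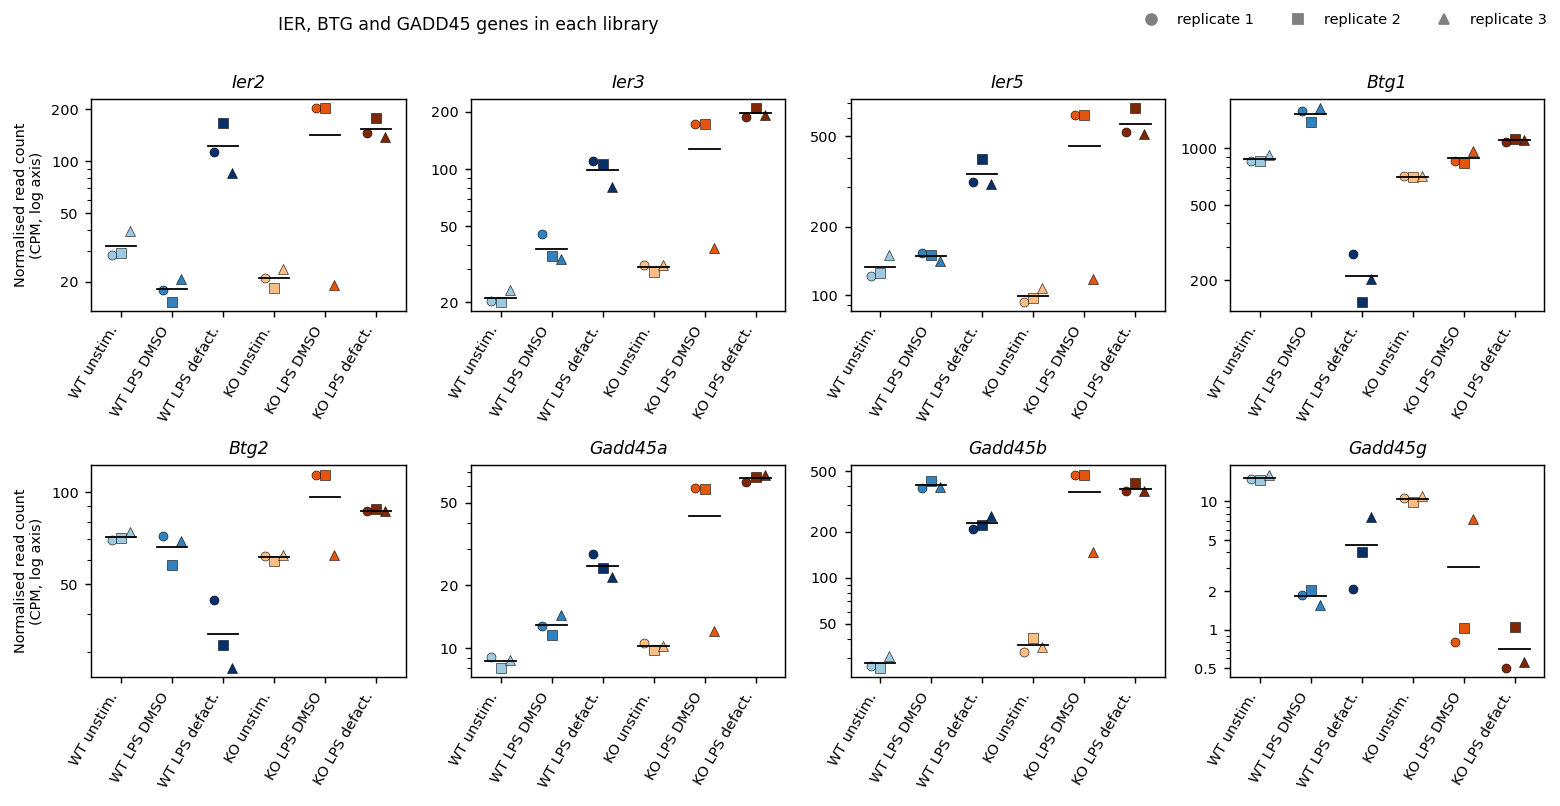
Normalised read count (CPM, log axis) of the 8 genes in each of the 18 libraries by group; symbols are libraries and bars group means. In the IRF5 KO LPS DMSO group Ier2 is near 203 CPM in replicates 1 and 2 and at 19.1 CPM in replicate 3, and for Btg1 WT LPS defactinib lies below every other group.

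In WT macrophages, Gadd45b was higher and Gadd45g lower after LPS with DMSO than unstimulated. Defactinib before LPS raised all 3 IER genes and lowered Btg1. A gene was called when edgeR's quasi-likelihood test gave an adjusted p below 0.05 and the log2 fold change lay beyond 1 in either direction. After LPS with DMSO, 1 of the 8 genes was called higher (background 11.6% of all tested genes) and 1 lower (background 9.71%). Defactinib against DMSO under LPS gave 3 called higher (background 10.4%) and 1 lower (background 18.6%). In LPS defactinib against unstimulated libraries all 8 were called, 5 higher (background 9.10%) and 3 lower (background 15.8%). The median log2 fold change of the 8 genes was 0.37, 1.07 and 1.44 in these comparisons, beside 0.00, 0.09 and 0.04 over all tested genes. The comparisons share their libraries in pairs and are given side by side. In bulk RNA, fewer cells that express a gene and less RNA per cell cannot be told apart.

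Ier2, a nuclear protein gene of early growth factor responses, was at 28.4, 29.5 and 39.2 CPM in unstimulated WT libraries, 17.9, 15.3 and 20.9 CPM after LPS with DMSO and 114, 167 and 85.8 CPM after LPS with defactinib. The groups did not overlap, and the defactinib libraries were the highest. Its log2 fold change was −0.84 ± 0.54 (SE) for LPS with DMSO (adjusted p = 0.234, not called) and 2.76 ± 0.57 for defactinib against DMSO (adjusted p = 0.000821), a 6.77-fold rise. Ier3, an NF-kB and p53 target that takes part in the control of apoptosis, was at 20.2, 20.2 and 23.1 CPM, 45.5, 34.8 and 33.9 CPM and 111, 106 and 80.9 CPM in the same order. Again no groups overlapped, with unstimulated lowest and defactinib highest. The difference was 0.85 ± 0.36 for LPS (adjusted p = 0.0728, not called), and Ier3 rose by 1.38 ± 0.36 with defactinib (adjusted p = 0.00466). Ier5, a radiation- and heat-responsive gene, was at 122, 125 and 151 CPM, 152, 150 and 141 CPM and 315, 396 and 306 CPM. The first 2 groups overlapped and every defactinib library lay above them. Ier5 was at 0.16 ± 0.39 for LPS (adjusted p = 0.778, not called) and rose by 1.20 ± 0.39 with defactinib (adjusted p = 0.0168), a call lost without WT LPS defactinib replicate 2, at 1.08. From unstimulated to LPS with defactinib, Ier2 rose by 1.92 ± 0.55, Ier3 by 2.23 ± 0.37 and Ier5 by 1.36 ± 0.39 on the log2 scale.

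Btg1, known for high transcript levels in quiescent cells, was at 856, 858 and 917 CPM in unstimulated WT libraries, 1581, 1377 and 1633 CPM after LPS with DMSO and 275, 154 and 201 CPM after LPS with defactinib. No groups overlapped, and the defactinib libraries were the lowest of all 18 for this gene. The LPS difference was 0.80 ± 0.15 (adjusted p = 0.000382), under the fold threshold, and with defactinib Btg1 fell by 2.86 ± 0.16 on the log2 scale (adjusted p = 2.65e-09), a 7.28-fold change. Against unstimulated cells it fell by 2.06 ± 0.15 (adjusted p = 1.41e-07). Btg2, a p53 target, was at 69.5, 70.6 and 74.3 CPM, 72.1, 57.8 and 69.1 CPM and 44.3, 31.6 and 26.6 CPM in the same order. The first 2 groups overlapped and every defactinib library lay below them. Btg2 was at −0.11 ± 0.20 for LPS (adjusted p = 0.7, not called) and −0.96 ± 0.20 for defactinib (adjusted p = 0.000814), just under the fold threshold. It was called without WT LPS DMSO replicate 2 (−1.03) or without WT LPS defactinib replicate 1 (−1.15). Against unstimulated cells Btg2 fell by 1.07 ± 0.20 (adjusted p = 0.000518), and without WT LPS defactinib replicate 3 that value was −0.90 and not called.

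Gadd45a, the classical p53 target of DNA damage, was at 9.04, 8.05 and 8.78 CPM in unstimulated WT libraries, 12.8, 11.6 and 14.4 CPM after LPS with DMSO and 28.2, 24.3 and 21.99 CPM after LPS with defactinib. The groups were separate and ascended in that order. The LPS difference was 0.59 ± 0.37 (adjusted p = 0.23, not called) and that of defactinib against DMSO 0.94 ± 0.37 (adjusted p = 0.0407), under the fold threshold; without WT LPS defactinib replicate 3 it was called at 1.04. From unstimulated to LPS with defactinib, Gadd45a rose by 1.53 ± 0.37 (adjusted p = 0.00359). Gadd45b, an NF-kB target, was at 26.5, 25.8 and 30.6 CPM, 387, 428 and 395 CPM and 209, 222 and 253 CPM. Every LPS library exceeded every unstimulated one, and the defactinib libraries lay below the DMSO ones. Gadd45b rose by 3.87 ± 0.32 after LPS (adjusted p = 2.25e-07), 14.6-fold, was at −0.82 ± 0.29 with defactinib against DMSO (adjusted p = 0.0228, under the fold threshold) and was 3.04 ± 0.31 above unstimulated cells with both (adjusted p = 3.38e-06).

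Gadd45g, a cytokine-responsive member, was at 14.9, 14.8 and 16.2 CPM in unstimulated WT libraries, 1.88, 2.05 and 1.55 CPM after LPS with DMSO and 2.07, 4.04 and 7.53 CPM after LPS with defactinib. The unstimulated libraries were the highest, and the defactinib libraries were spread upward from just above the DMSO ones. Gadd45g fell by 3.07 ± 0.66 after LPS (adjusted p = 0.00152), 8.37-fold. The step from DMSO to defactinib was 1.31 ± 0.64 (adjusted p = 0.0909, not called by edgeR with all libraries). It was called by DESeq2 at 1.31 (adjusted p = 0.0485), by edgeR with only the 2 groups compared at 1.35 (adjusted p = 0.0246), without WT LPS defactinib replicate 1 at 1.69, without IRF5 KO LPS DMSO replicate 1 at 1.34 or 3 at 1.31, and with the latter alone at 1.33. From unstimulated to LPS with defactinib it fell by 1.75 ± 0.62 (adjusted p = 0.0269). That last call was lost without any 1 of the 3 WT unstimulated libraries (−1.77, −1.78 and −1.71) and without WT LPS defactinib replicate 1 (−1.38) or 2 (−1.67). It was also lost with no filter on low counts (−1.80).

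**Figure D2:**
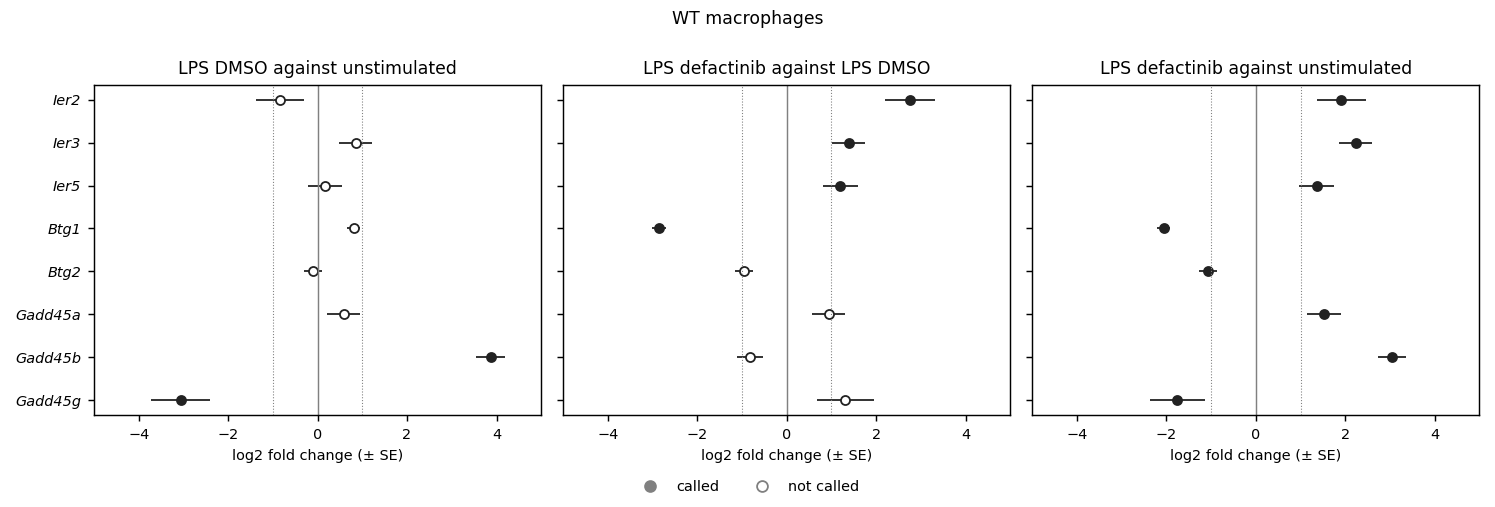
Log2 fold change with its SE for the 8 genes in 3 comparisons of WT macrophages (3 libraries per group), where filled points were called. Gadd45b at 3.87 and Gadd45g at −3.07 stand out after LPS with DMSO, and Ier2 at 2.76 and Btg1 at −2.86 for defactinib against DMSO.

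In IRF5 KO macrophages, the IER genes, Gadd45a and Gadd45b rose and Gadd45g fell in the libraries labelled LPS DMSO, and edgeR called none of the 8 genes for defactinib against DMSO. After LPS with DMSO, 5 genes were called higher (background 7.07%) and 1 lower (background 6.28%). Without replicate 3 of the DMSO group 6 genes were called (background 26.2% in either direction), and with replicate 3 alone 1, Gadd45b (background 2.71%). When only the 2 groups compared entered the fit, 1 gene was called (background 1.08%). Defactinib against DMSO gave 0 called by edgeR, beside 0.160% of tested genes called higher and 0.760% lower, and 2 at an unadjusted p below 0.05, beside 23.3% of tested genes. DESeq2 called 1, Gadd45g lower, beside 0.268% of tested genes called higher and 3.07% lower. Without replicate 3 edgeR gave 0 (background 1.45%) and with replicate 3 alone 6 (background 19.2%). LPS with defactinib against unstimulated, which compares none of these DMSO libraries, gave 5 called higher (background 7.85%) and 1 lower (background 16.2%).

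Ier2 was at 21.02, 18.4 and 23.6 CPM in unstimulated IRF5 KO libraries, 203, 203 and 19.1 CPM after LPS with DMSO and 145, 179 and 138 CPM after LPS with defactinib. Replicate 3 of the DMSO group lay within the unstimulated range, and the other 2 above every defactinib library. Ier2 rose by 2.75 ± 0.56 after LPS with DMSO (adjusted p = 0.0035), by 3.27 ± 0.23 without replicate 3, and was at −0.12 ± 0.31 with replicate 3 alone. Ier3 was at 31.2, 28.9 and 31.3 CPM, 172, 172 and 38.4 CPM and 189, 208 and 193 CPM in the same order. The defactinib libraries were the highest, and replicate 3 of the DMSO group was just above the unstimulated libraries. Ier3 rose by 2.06 ± 0.37 (adjusted p = 0.00182), by 2.50 ± 0.13 without replicate 3, and was at 0.35 ± 0.17 with it alone. Ier5 was at 93.7, 97.1 and 108 CPM, 619, 617 and 117 CPM and 521, 662 and 510 CPM. Replicate 3 was again just above the unstimulated libraries. Ier5 rose by 2.18 ± 0.40 (adjusted p = 0.00206), by 2.63 ± 0.13 without replicate 3, and was at 0.25 ± 0.17 with it alone. From unstimulated to LPS with defactinib, Ier2 rose by 2.87 ± 0.57, Ier3 by 2.69 ± 0.38 and Ier5 by 2.50 ± 0.41 (adjusted p = 0.00086, 0.000104 and 0.000255). For defactinib against DMSO the values were 0.12 ± 0.53, 0.63 ± 0.36 and 0.32 ± 0.39 with all libraries, −0.40, 0.19 and −0.13 without replicate 3, and 2.99, 2.34 and 2.25 with it alone, the last 3 called.

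No BTG gene was called in IRF5 KO cells with all libraries. Btg1 was at 713, 702 and 711 CPM unstimulated, 853, 840 and 967 CPM after LPS with DMSO and 1082, 1128 and 1105 CPM after LPS with defactinib. The groups were separate and ascended in that order, with replicate 3 of the DMSO group close to the other 2. The differences were 0.32 ± 0.15 for LPS with DMSO (adjusted p = 0.0909; 0.26 without replicate 3 and 0.46 with it alone), 0.32 ± 0.15 for defactinib against DMSO (adjusted p = 0.205) and 0.64 ± 0.15 for LPS with defactinib against unstimulated (adjusted p = 0.00209). Btg2 was at 61.9, 59.5 and 62.3 CPM, 114, 114 and 62.1 CPM and 86.6, 88.1 and 86.5 CPM in the same order. Replicate 3 of the DMSO group was within the unstimulated range. The LPS difference was 0.66 ± 0.20 with all libraries (adjusted p = 0.0188), 0.90 ± 0.14 without replicate 3 and 0.03 ± 0.18 with it alone, and LPS with defactinib against unstimulated was at 0.51 ± 0.20 (adjusted p = 0.0401), all under the fold threshold. Defactinib against DMSO was at −0.15 ± 0.20 for Btg2 (adjusted p = 0.68), −0.39 without replicate 3 and 0.47 with it alone.

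Gadd45a was at 10.6, 9.79 and 10.3 CPM in unstimulated IRF5 KO libraries, 59.0, 58.1 and 12.1 CPM after LPS with DMSO and 62.8, 66.5 and 68.1 CPM after LPS with defactinib. The defactinib libraries were the highest, and replicate 3 of the DMSO group was just above the unstimulated ones. Gadd45a rose by 2.07 ± 0.38 after LPS with DMSO (adjusted p = 0.00196), by 2.51 ± 0.11 without replicate 3, and was at 0.25 ± 0.14 with it alone. LPS with defactinib raised it by 2.68 ± 0.39 over unstimulated cells (adjusted p = 0.000114). Gadd45b was at 32.8, 40.6 and 35.0 CPM, 474, 475 and 147 CPM and 371, 416 and 369 CPM. All 3 DMSO libraries lay above the unstimulated ones, replicate 3 the least. Gadd45b rose by 3.34 ± 0.31 with all libraries (adjusted p = 7.07e-06), by 3.71 ± 0.11 without replicate 3 and by 2.04 ± 0.13 with it alone, and by 3.41 ± 0.31 after LPS with defactinib (adjusted p = 3.11e-06). For defactinib against DMSO, Gadd45a and Gadd45b were at 0.61 ± 0.36 and 0.08 ± 0.28 with all libraries, 0.17 and −0.30 without replicate 3, and 2.43 and 1.37 with it alone, where both were called.

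Gadd45g was at 10.6, 9.85 and 10.95 CPM in unstimulated IRF5 KO libraries, 0.800, 1.03 and 7.34 CPM after LPS with DMSO and 0.505, 1.05 and 0.558 CPM after LPS with defactinib. The low values rest on few read pairs, 33, 39 and 375 in the DMSO libraries and 29, 47 and 21 in the defactinib ones. Gadd45g fell by 1.76 ± 0.62 after LPS with DMSO (adjusted p = 0.0382) and by 3.52 ± 0.43 without replicate 3, and was at −0.50 ± 0.45 with it alone. The call with all libraries was lost without DMSO replicate 1 (−1.29) or 2 (−1.33), and without any 1 of the 3 IRF5 KO unstimulated libraries (−1.80 to −1.72), IRF5 KO LPS defactinib replicate 3 (−1.74), WT unstimulated replicate 1 or 2 (−1.76 each) or WT LPS DMSO replicate 1 (−1.74). This call was also lost with no filter on low counts (−1.76) and with only the groups compared in the fit (−1.72). Gadd45g fell by 3.89 ± 0.70 from unstimulated to LPS with defactinib (adjusted p = 0.00049). Defactinib against DMSO was at −2.14 ± 0.68 (adjusted p = 0.0858, not called by edgeR), −0.38 without replicate 3 and −3.40 with it alone. DESeq2 called it at −2.12 (adjusted p = 0.0104), and so did edgeR without DMSO replicate 1 (−2.60) or 2 (−2.56).

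**Figure D3:**
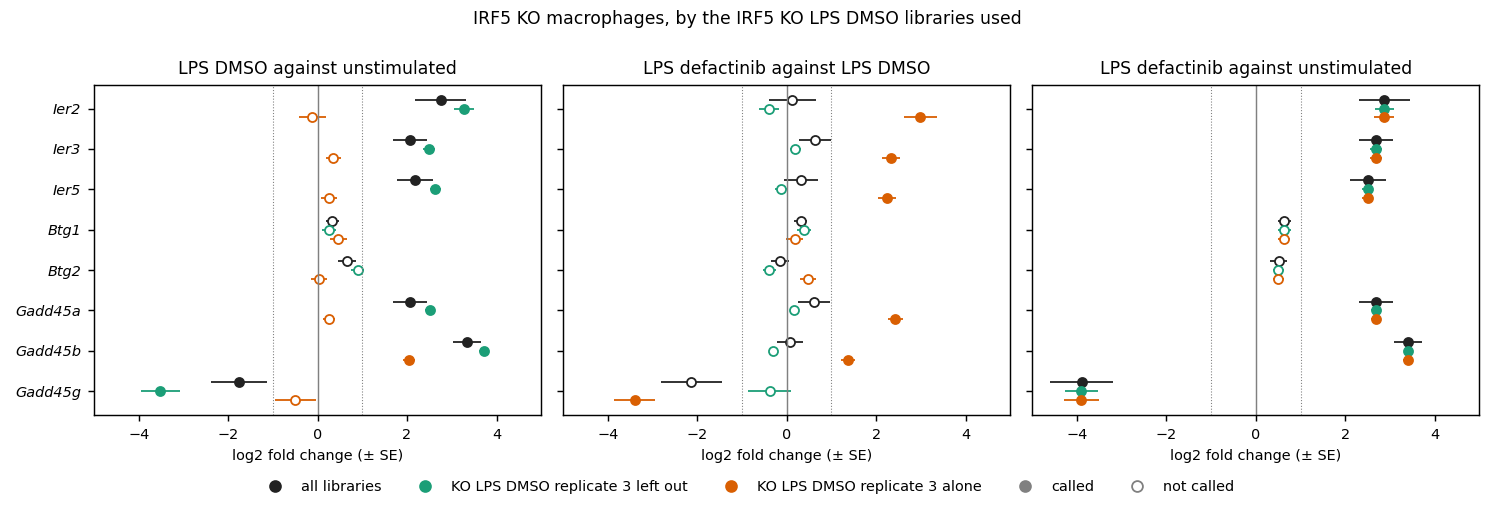
Log2 fold change with its SE for the 8 genes in 3 comparisons of IRF5 KO macrophages, with all libraries, without replicate 3 of the LPS DMSO group and with that replicate alone; filled points were called. Ier2 after LPS with DMSO moves between 3.27 and −0.12 with the choice of libraries, while for LPS with defactinib against unstimulated it is at 2.87 under each.

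Between genotypes, none of the 8 genes was called in unstimulated cells, and after LPS with defactinib Btg1, Btg2 and Gadd45a were lower and Gadd45g was higher in WT. In unstimulated cells WT against IRF5 KO gave 0 genes called by edgeR, beside 3.80% of tested genes called higher and 3.51% lower. At an unadjusted p below 0.05 there were 0 (26.4% of tested genes). DESeq2 called 0 of the 8 genes, beside 653 higher and 570 lower of the 15663 tested genes. The count at an unadjusted p below 0.05 rests on the spread that all groups share: it was 8 with only the 2 groups compared (50.4% of tested genes) and 6 without IRF5 KO LPS DMSO replicate 3 (35.6%), with 0 called in both. The log2 fold changes ran from −0.53 for Ier3 to 0.62 for Ier2. The unstimulated libraries of the genotypes did not overlap for 8 of 8 genes, which held for 51.4% of all tested genes. After LPS with DMSO, 0 were called higher in WT (background 14%) and 4 lower (background 11.8%). These were Ier2 at −2.97 ± 0.57 (adjusted p = 0.000632), Ier3 at −1.74 ± 0.37 (adjusted p = 0.00121), Ier5 at −1.61 ± 0.39 (adjusted p = 0.00357) and Gadd45a at −1.73 ± 0.37 (adjusted p = 0.00148). Their WT and IRF5 KO libraries overlapped through IRF5 KO replicate 3. Without it the 4 genes were called (background 34.5% in either direction) at −3.49, −2.18, −2.07 and −2.18. With replicate 3 alone they were at −0.10, −0.03, 0.31 and 0.08, and 2 others, Gadd45b at 1.44 ± 0.16 and Gadd45g at −2.02 ± 0.44, were called (background 16%). Btg1 was 0.79 ± 0.15 higher in WT (adjusted p = 0.000447), under the fold threshold, and its libraries did not overlap.

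After LPS with defactinib, which compares no LPS DMSO library, 1 gene was called higher in WT (background 8.45%) and 3 lower (background 8.87%). Btg1 was lower in WT, at −2.39 ± 0.15 (adjusted p = 1.32e-08), a 5.26-fold difference, with means of 210 ± 61.3 CPM (SD, n = 3) against 1105 ± 23.1 CPM. Btg2 was at −1.35 ± 0.20 (adjusted p = 7.96e-05) and Gadd45a at −1.41 ± 0.37 (adjusted p = 0.00776). Gadd45g was higher in WT, at 2.69 ± 0.69 (adjusted p = 0.00667). The libraries did not overlap between genotypes for these 4 genes, nor for Ier3, Ier5 and Gadd45b, which were not called, and overlapped for Ier2. The share of all tested genes without overlap was not computed for this comparison. Ier3 at −0.99 ± 0.36 (adjusted p = 0.0432) and Gadd45b at −0.76 ± 0.29 (adjusted p = 0.0494) were under the fold threshold, and Ier2 at −0.34 ± 0.53 (adjusted p = 0.654) and Ier5 at −0.73 ± 0.39 (adjusted p = 0.154) did not pass the test.

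**Figure D4:**
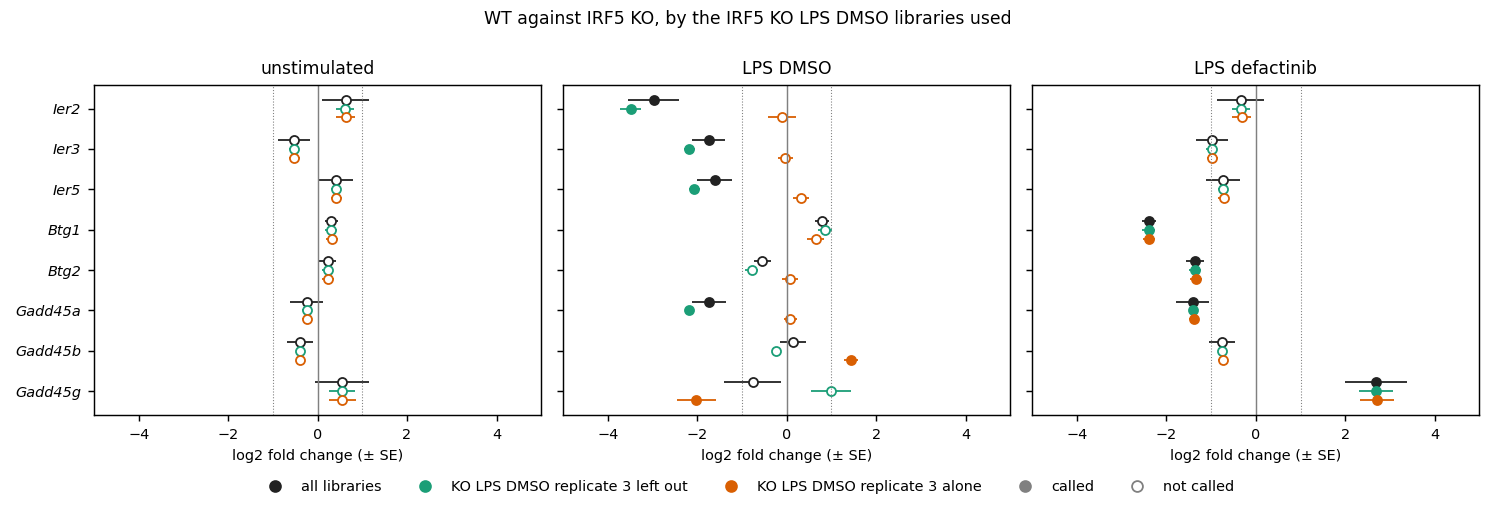
Log2 fold change of WT against IRF5 KO with its SE for the 8 genes, unstimulated, after LPS with DMSO and after LPS with defactinib, by the IRF5 KO LPS DMSO libraries used; filled points were called. After LPS with DMSO, Ier2 moves from −2.97 to −0.10 when replicate 3 stands alone, and after LPS with defactinib Btg1 is at −2.39.

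Whether responses differed between genotypes was tested as an interaction, the WT response minus the IRF5 KO response. For LPS with DMSO, 0 genes were called higher (background 6.33%) and 2 lower (background 3.49%), Ier2 at −3.60 ± 0.77 (adjusted p = 0.00641) and Ier5 at −2.02 ± 0.55 (adjusted p = 0.0215). Without IRF5 KO LPS DMSO replicate 3 the count was 5 (background 23.6%), with Ier2 at −4.12, Ier3 at −1.65, Ier5 at −2.48, Btg2 at −1.01 and Gadd45a at −1.93. With replicate 3 alone it was 2 other genes (background 6.48%), Gadd45b at 1.83 and Gadd45g at −2.58. The Ier5 call was lost, leaving 1, without WT unstimulated replicate 3 (−1.92), IRF5 KO unstimulated replicate 1 (−1.98), or IRF5 KO LPS DMSO replicate 1 (−1.74) or 2 (−1.75).

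For defactinib against DMSO under LPS, the interaction gave 2 genes called higher (background 10.5%), Ier2 at 2.64 ± 0.76 (adjusted p = 0.0136) and Gadd45g at 3.45 ± 0.93 (adjusted p = 0.00935), and 1 lower (background 12.3%), Btg1 at −3.18 ± 0.21 (adjusted p = 3.85e-08). Without IRF5 KO LPS DMSO replicate 3 the count was 5 (background 31.6%), with Ier3 at 1.19 and Ier5 at 1.33 added, Ier2 at 3.15 and Gadd45g down to 1.69. With replicate 3 alone it was 6 (background 19.1%), 1 higher, Gadd45g at 4.73, and 5 lower, among them Gadd45b at −2.18, Gadd45a at −1.48 and Btg2 at −1.42. Ier5 turned from a call higher without that library to a call lower with it alone, at −1.03, and Ier3 and Ier2 turned to −0.94 and −0.21, not called. Btg1 was called under each choice, at −3.25 without replicate 3 and −3.03 with it alone.

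The interaction for LPS with defactinib against unstimulated compares no LPS DMSO library and was added after the data had been seen. It gave 0 genes called higher (background 2.80%) and 2 lower (background 5.43%), the BTG genes. Btg1 was at −2.70 ± 0.21 (adjusted p = 4.4e-07), from a fall of 2.06 in WT and a difference of 0.64 in IRF5 KO. Btg2 was at −1.57 ± 0.28 (adjusted p = 0.00121), from a fall of 1.07 in WT and a difference of 0.51 in IRF5 KO. The other 6 genes did not pass with all libraries. The IRF5 KO LPS DMSO libraries enter this fit through the shared spread: without replicate 3 the count was 5 (background 11.9%), with Ier5 at −1.15, Gadd45a at −1.16 and Gadd45g at 2.14 added, and with replicate 3 alone it was also 5 (background 11.3%).

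Per kilobase of exon, Btg1 was the highest of the 8 genes in unstimulated cells, at a mean of 166 CPM per kb in WT and 134 CPM per kb in IRF5 KO, and Gadd45a was the lowest, at 4.89 and 5.80 CPM per kb. After LPS with DMSO, Btg1 at 290 CPM per kb and Gadd45b at 254 CPM per kb led in WT. After LPS with defactinib Gadd45b led in both genotypes, at 143 CPM per kb in WT and 242 CPM per kb in IRF5 KO. Btg1 was then the fifth in WT at 39.8 CPM per kb and the second in IRF5 KO at 209 CPM per kb. Gadd45g was the lowest in all 4 LPS groups, between 0.60 and 3.88 CPM per kb. Ranked over the 6 groups by mean CPM, Ier2, Ier3, Ier5 and Gadd45a were highest in IRF5 KO LPS defactinib, which did not overlap the next group, IRF5 KO LPS DMSO, for Ier3 and Gadd45a, and overlapped it for Ier2 and Ier5. Btg1 was highest in WT LPS DMSO without overlap, Gadd45b in WT LPS DMSO with overlap, Btg2 in IRF5 KO LPS DMSO with overlap and Gadd45g in WT unstimulated without overlap. Without IRF5 KO LPS DMSO replicate 3 that group ranked first for Ier2 at 203 CPM against 154 CPM in IRF5 KO LPS defactinib, for Ier5 at 618 against 564 CPM (with overlap) and for Gadd45b at 474 CPM against 403 CPM in WT LPS DMSO, and the first group of the other 5 genes did not change. The highest library exceeded the lowest by between 4.30-fold for Btg2 and 32.0-fold for Gadd45g.

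**Figure D5:**
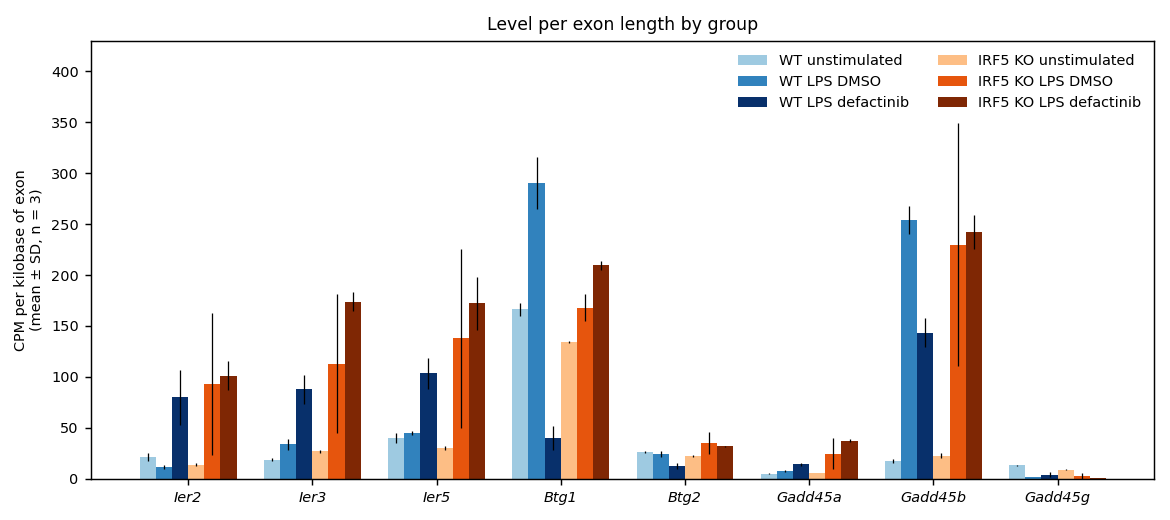
Level of each gene per kilobase of counted exon (CPM per kb) in the 6 groups; bars are means and error bars the SD over 3 libraries. Btg1 and Gadd45b reach the highest levels, 290 and 254 CPM per kb in WT LPS DMSO, and Gadd45g the lowest, 0.60 CPM per kb in IRF5 KO LPS defactinib.

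Across the 18 libraries, log2 CPM of Ier2, Ier3, Ier5 and Gadd45a followed each other. Pearson's r was 0.982 for Ier3 with Gadd45a, 0.959 for Ier5 with Gadd45a, 0.957 for Ier3 with Ier5, 0.956 for Ier2 with Ier5, 0.900 for Ier2 with Ier3 and 0.894 for Ier2 with Gadd45a. Btg1 and Btg2 had an r of 0.773 with each other, and with the IER genes and Gadd45a theirs ran from −0.377 to 0.348. Gadd45b had an r of 0.517 with Ier2, 0.761 with Ier3, 0.717 with Ier5 and 0.738 with Gadd45a. Gadd45g ran opposite to these, at −0.604, −0.833, −0.778 and −0.859 in the same order, and at −0.891 with Gadd45b. The 18 libraries belong to 6 groups and share treatments and depth scaling, so these values are a description. Among 8448 other tested genes, Ier2 was most like Gm7666 (r = 0.983), Egr1 (0.982), an immediate early transcription factor, and Txn2 (0.979). Ier3 was most like Ndufa10 (0.985), Ddb1 (0.983) and Ppib (0.983), and Ier5 like Zfp36 (0.981), which encodes an mRNA decay factor, Raly (0.975) and Phlda1 (0.973). The genes most like Btg1 were Nuak2 (0.986), Aar2 (0.981) and Cish (0.980), a cytokine signalling inhibitor, and those most like Btg2 were Zbtb2 (0.927), Utp15 (0.924) and Siah2 (0.916). For Gadd45a they were Ppib (0.988), Rpn2 (0.985) and Snrpd3 (0.980). For Gadd45b they were Nfkbia (0.985), which encodes the NF-kB inhibitor IkB alpha, Ccrl2 (0.984) and Nfkbiz (0.982), and for Gadd45g Gtpbp8 (0.981), Trappc5 (0.978) and Fam53a (0.978).

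Genes of the surrounding pathways were read from the same fits. Of all tested genes in WT, 11.6% were called higher and 9.71% lower after LPS with DMSO, and 10.4% higher and 18.6% lower for defactinib against DMSO. Of 27 other immediate early genes, 5 were called higher and 7 lower after LPS with DMSO in WT (median log2 fold change −0.05), and 6 higher and 12 lower for defactinib against DMSO (median −0.77). With defactinib the AP-1 subunit genes Fos and Fosb rose by 3.83 ± 0.66 and 2.93 ± 0.80, and the nuclear receptor gene Nr4a3 fell by 3.88 ± 0.39. After LPS with DMSO, Dusp2, a MAP kinase phosphatase gene, rose by 3.72 ± 0.28, and Myc and Egr2 fell by 4.40 ± 0.41 and 3.19 ± 0.17. In IRF5 KO cells 13 were called higher and 4 lower after LPS with DMSO, beside 7.07% and 6.28% of tested genes. Without replicate 3 these counts were 13 and 7, beside 9.64% and 16.6%, and with it alone 3 and 0, beside 2.66% and 0.0419%. Defactinib against DMSO in IRF5 KO gave 0 called by edgeR (0.160% of tested genes higher and 0.760% lower), 6 at an unadjusted p below 0.05 (23.3%) and 1 called by DESeq2, which called 3.34% of tested genes. Without replicate 3 edgeR called 0 (background 1.45%), and with it alone 10 higher and 4 lower (background 19.2% in either direction).

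Of 21 p53 targets, 4 were called higher and 7 lower after LPS with DMSO in WT, and 2 higher and 5 lower for defactinib against DMSO, beside the same shares of all tested genes (11.6% and 9.71%, 10.4% and 18.6%). Cdkn1a, the cell cycle inhibitor p21, fell by 2.57 ± 0.21 with defactinib and Bbc3, the apoptosis activator PUMA, by 2.18 ± 0.22. Eda2r rose by 2.75 ± 0.25 after LPS with DMSO and fell by 2.01 ± 0.25 with defactinib. Plk2, a stress-induced kinase gene, rose by 2.59 ± 0.29 after LPS with DMSO and Phlda3 fell by 2.33 ± 0.17. Of 4 tested paralogs of the IER and BTG genes, Ier5l was at 5.06, 5.50 and 5.63 CPM in unstimulated WT libraries, 0.348, 0.358 and 0.381 CPM after LPS with DMSO and 54.0, 99.8 and 20.9 CPM after LPS with defactinib. The groups did not overlap. Ier5l fell by 3.89 ± 0.87 after LPS with DMSO and rose by 7.32 ± 0.93 with defactinib. The BTG relatives Tob1 and Tob2 fell with defactinib by 1.20 ± 0.17 and 2.62 ± 0.24.

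Of 16 deadenylation genes, which include partners of the BTG proteins, 0 were called after LPS with DMSO in WT by edgeR and 0 by DESeq2, with 8 at an unadjusted p below 0.05 (48.7% of tested genes). For defactinib against DMSO 2 fell (background 18.6%), the CCR4-NOT genes Cnot1 by 1.32 ± 0.28 and Cnot4 by 1.20 ± 0.13. Of 12 GADD45 partners and effectors, 1 was called after LPS with DMSO in WT, Map3k4, which fell by 2.86 ± 0.15 (background 9.71%). With defactinib Map3k4 rose by 2.06 ± 0.15 and the p38 activator Map2k6 by 1.82 ± 0.46 (background 10.4%), and 2 others were called lower, among them the JNK activator Map2k4 at −1.11 ± 0.10. All 10 LPS-response genes were called higher after LPS with DMSO in WT (background 11.6%), among them Il6 by 12.74 ± 1.49, Ptgs2 by 9.35 ± 0.69 and Ifit1 by 7.49 ± 1.40. With defactinib against DMSO 7 of them were called lower in WT (background 18.6%), among them Ifit1 at −7.71 ± 1.42, Il6 at −7.31 ± 1.13 and Isg15 at −3.66 ± 0.55. In IRF5 KO 0 were called by edgeR (0.160% of tested genes higher and 0.760% lower), with 5 at an unadjusted p below 0.05 (23.3%) and 2 called by DESeq2 (3.34%). Without replicate 3 edgeR called 0 (background 1.45%), and with it alone 4 higher and 2 lower (background 19.2% in either direction). Il6 with defactinib, at 104, 92.8 and 102 CPM, lay above DMSO replicates 1 and 2 and below replicate 3, and so did Ifit1, at 17.6, 16.5 and 17.4 CPM.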

How the data were processed

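RNA was sequenced as 150 bp paired ends. The authors aligned the reads to mm10 with STAR and counted uniquely mapped pairs per gene with featureCounts 1.6.3 by strand, and the deposited values are raw counts of 18 libraries. The authors tested with DESeq2. Here edgeR 4.0.16 (R 4.3.3) was run on those counts with TMM scaling, filterByExpr, 1 mean per group over all 18 libraries and the quasi-likelihood test, with Benjamini-Hochberg adjustment over 15663 genes. A call needed an adjusted p below 0.05 and a log2 fold change beyond 1. CPM is the count scaled by the TMM-adjusted library size over the tested genes. The fit was also run on simulated data in which only WT LPS DMSO was changed and the groups shared their spread. Such data hold no group with an outlying library, so the run cannot speak to the IRF5 KO LPS DMSO calls. Values rest on 3 libraries per group, and depth limits mainly Gadd45g, whose lowest count was 21.

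The 8 genes, the gene lists and the tests were chosen with earlier results of these data known. Besides the 8 genes and Irf5, the text names the 3 genes with the highest correlation with each gene (mean log2 CPM of at least 3, log2 CPM with a prior count of 2) and, for LPS and for defactinib in WT, up to 3 called genes per list with the largest change. Alternatives were DESeq2 1.42.0, its size factors, library size alone, no filter or 5 CPM in 3 libraries, no fold threshold, only the groups compared, a replicate block, each library left out, and IRF5 KO LPS DMSO replicate 3 left out or alone.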

Additional observations from a re-analysis of the deposited data

Results flagged for a closer look

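Each of these results was picked out because the response differed between WT and IRF5 KO by the test of the difference itself (edgeR interaction, WT minus IRF5 KO, log2 scale). For LPS with DMSO these were Ier2 at −3.60 and Ier5 at −2.02. For defactinib against DMSO under LPS they were Ier2 at 2.64, Btg1 at −3.18 and Gadd45g at 3.45. For LPS with defactinib against unstimulated, a test added after the data had been seen, they were Btg1 at −2.70 and Btg2 at −1.57. The first 2 comparisons use IRF5 KO LPS DMSO replicate 3, and with that library alone Ier2 was at −0.73 and −0.21 and Ier5 at −0.10. Gadd45g in the interaction with defactinib was at 1.69 without replicate 3 and 4.73 with it alone. Btg1 was called with all libraries, without replicate 3 and with it alone. The values of single genes were not tested for an outlying library within groups of 3; that IRF5 KO LPS DMSO replicate 3 stood apart comes from the comparison of whole libraries.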

How the results depend on the processing

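Of 41 called results for the 8 genes, 26 kept their direction and their call under every alternative. Dropping the fold threshold cannot undo a call, and many fits left out a library that the comparison does not use directly. Such alternatives tested the calls weakly, also in the totals that follow. Over all 53 results with an adjusted p below 0.05 the alternatives gave 1370 values on the same side of the threshold, 38 weaker, 18 stronger and 5 reversed. The reversed ones all came with IRF5 KO LPS DMSO replicate 3 alone: Ier2 after LPS in IRF5 KO (−0.12), Ier5 (0.31), Btg2 (0.078) and Gadd45a (0.084) in WT against IRF5 KO after LPS with DMSO, and Ier2 in the interaction with defactinib (−0.21). The cause was not tested.

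Counts of called genes moved as follows. With only the groups compared in the fit, the count for LPS in IRF5 KO went from 6 to 1. The share of tested genes called there went from 7.07% higher and 6.28% lower to 1.08% in either direction. The count for WT against IRF5 KO after LPS with DMSO went from 4 to 2, and for the interaction with LPS plus defactinib from 2 to 5. With replicate 3 alone these 3 counts were 1, 2 and 5, and the counts for defactinib in IRF5 KO and its interaction were 6 and 6. Defactinib in WT gave 7 without the fold threshold in place of 4, and 5 with DESeq2, with library size alone and with only the groups compared. Over all 15663 tested genes, the main fit called 1636 higher and 2916 lower, and 9718 had an unadjusted p below 0.05. DESeq2 called 1619 higher and 2848 lower, and library size alone 2350 and 2426. DESeq2 gave 1 for defactinib in IRF5 KO (3.34% of tested genes). No filter on low counts gave 1 for the interaction with LPS in place of 2 (676 higher and 452 lower of 26458 genes). It also gave 5 for LPS in IRF5 KO in place of 6, and 7 for LPS plus defactinib in WT in place of 8. DESeq2 gave 3 for the interaction with LPS, with Gadd45a at −1.48. Leaving out 1 library gave 3 (without WT LPS defactinib replicate 2) to 6 (without replicate 1) for defactinib in WT, 0 to 1 for defactinib in IRF5 KO, 1 to 5 for the interaction with LPS, 3 to 5 for that with defactinib and 2 to 5 for that with LPS plus defactinib. The count of 1 for defactinib in IRF5 KO came without DMSO replicate 1 or 2, and each count of 5 in the interactions without DMSO replicate 3. Without replicate 3 the background was 23.6% for the interaction with LPS, 31.6% with defactinib and 11.9% with LPS plus defactinib.

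With a replicate block, WT against IRF5 KO after LPS with defactinib gave 5 called genes in place of 4, with Ier3 at −1.01, and no other count changed. Same-numbered libraries mostly did not deviate together (median r 0.0046 over 45 pairs, from −0.105 to 0.278, 4 above 0.1), and the main fit used no block. Libraries with different numbers were not compared for reference, so this check cannot exclude mice or batches shared between some groups.

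Library size alone, without TMM, shifted the median log2 fold change of all genes to −0.38 for LPS in WT, 0.29 for defactinib in WT, −0.30 for WT against IRF5 KO after LPS with DMSO and 0.45 for the interaction with defactinib. It turned the higher and lower calls from 1819 and 1521 to 1295 and 2834 for LPS in WT, from 1108 and 983 to 901 and 1685 for LPS in IRF5 KO, from 1636 and 2916 to 2350 and 2426 for defactinib in WT, from 25 and 119 to 12 and 198 for defactinib in IRF5 KO, from 1229 and 2537 to 817 and 3746 for LPS plus defactinib in IRF5 KO and from 2195 and 1841 to 1623 and 2637 for WT against IRF5 KO after LPS with DMSO. For the interactions it turned them from 992 and 547 to 653 and 807 (LPS), from 1647 and 1921 to 2853 and 1280 (defactinib) and from 438 and 850 to 759 and 637 (LPS plus defactinib). It reversed no called result of the 8 genes.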
